A study of Homo sapiens with 2 samples.

Results

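The genes described here are the replicative DNA polymerases and primase, 10 genes that encode POLA1, POLA2, PRIM1 and PRIM2 of DNA polymerase alpha-primase, POLD1, POLD2, POLD3 and POLD4 of DNA polymerase delta, and POLE and POLE2 of DNA polymerase epsilon. They were chosen by name, and a probe was taken for a gene when it was not a control on either array and its RefSeq transcript belonged to that gene. The arrays carried 13 such probes in 22 spots, of 50599 probes in all, 50532 of which had a spot on each array that was no outlier. All 10 genes were well above background on both arrays, out of 23752 genes and unnamed transcripts that rose above background on the DMSO array, the HTE array or both, called the genes measured here. The study compared HepG2 cells, an established human liver cancer cell line, given hawk tea extract (HTE) with cells given dimethyl sulfoxide (DMSO), the solvent control. One 1-colour Agilent gene expression array was hybridised per condition with RNA collected after 24 h, and DMSO was used at 1‰ in the control. The labels give an HTE dose of 200 μg/mL, whereas the name under which the HTE array was deposited carries 300. The paper on these data also gives 300 μg/mL for its microarray, a dose at which it reports reduced cell viability. With 1 array a condition, these data hold no replicate, so no p-value or standard error between conditions is given. Array and treatment cannot be told apart. For POLE and the helicase genes MCM2, MCM4 and MCM5, the paper reports independent quantitative real-time PCR experiments. It describes their results as matching its microarray well.

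DNA polymerase alpha-primase lays down the RNA-DNA primers that start each new strand. DNA polymerase epsilon then extends the leading strand and DNA polymerase delta the lagging strand, both held by the sliding clamp and following the replicative helicase. Transcription of many of the genes for this machinery is known to rise before S phase under the E2F transcription factors.

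The promoters are shown because sequence is a property that the choice of genes did not use. RefSeq windows on GRCh38.p14, running from 250 bases before to 50 bases after a transcription start, were found for 9 of the 10 genes, in 12 windows. POLD3 had no entry. E2F sites were searched as TTTCCCGC, TTTGGCGC, TTTCGCGC or TTTGCCGC on both strands, and they were in 4 of the 9 genes and 4 of the 12 windows (33.3%). Over all 35116 windows of the table the share was 3.31%. The stretches around these sites follow, each written 5′ to 3′ along the gene, with the E2F letters in capitals.
POLA1 (chrX:24693759-24693810, plus strand): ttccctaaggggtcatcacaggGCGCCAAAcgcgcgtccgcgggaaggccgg
POLA2 (chr11:65261887-65261938, plus strand): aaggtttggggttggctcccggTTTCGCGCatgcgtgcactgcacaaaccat
POLE (chr12:132687342-132687371, minus strand): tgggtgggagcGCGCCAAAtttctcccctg
POLE2 (chr14:49688201-49688230, minus strand): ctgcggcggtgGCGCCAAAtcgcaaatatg
The same letters, TTTGGCGC read on the opposite strand, stood in POLA1, POLE and POLE2. Counted from the transcription start, the site began at position -137 in POLA1, -53 in POLA2, -18 in POLE and -5 in POLE2. None of these 4 letter strings was in the windows of PRIM1, PRIM2, POLD1, POLD2 or POLD4, which says only that they are not within these 300 bases.

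POLD2 and POLD4 were the members with more signal after HTE, and POLD4, the member past 2-fold, is shown. Both had windows with NF-Y and Sp1 letters, as did POLA1 and POLE, which had less signal after HTE. The POLD4 window held NF-Y sites (CCAAT) and Sp1 sites (GGGCGG), here in capitals on either strand, where a pair of Sp1 sites overlap.
POLD4 (chr11:67353597-67353756, minus strand): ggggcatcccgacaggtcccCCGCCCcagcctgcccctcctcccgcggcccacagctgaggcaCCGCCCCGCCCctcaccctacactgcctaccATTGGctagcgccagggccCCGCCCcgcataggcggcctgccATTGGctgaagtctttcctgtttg
NF-Y letters were in 6 of the 12 windows (50%) against 34.6% of all windows, and Sp1 letters in 7 (58.3%) against 45%. The cell cycle homology region (TTTGAA) was in 0 of 12 windows and in 15.2% of all, and the AP-1 site (TGACTCA) in 0 of 12 and in 4.95% of all. For comparison, the helicase and fork partners had E2F letters in 9 of 18 windows (50%) and the repair and translesion polymerases in 2 of 15 (13.3%). A match in these letters is a description of the sequence, and binding was not measured.

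Of the 10 genes, 8 had less signal after HTE and 2, POLD2 and POLD4, had more, where each array was scaled to its 75th percentile. With scaling to the median of the E1A spike-in probes, for RNAs added in fixed amounts, POLD2 (-1.14) and POLD4 (-0.0515) also lay below 0. Over all genes measured, 49.0% were lower. For the 10 genes the log2 ratio of HTE over DMSO had a median of -0.78, and for all genes measured a median of 0.00. At least 1.5-fold lower were 8 of 10, beside 10.5% of the genes measured, and at least 2-fold lower were 3 of 10 (POLE2, POLD3 and POLD1), beside 3.03%. The latter share was 2.96% among the 21000 genes well above background on both arrays. At least 2-fold higher was 1 of 10, POLD4, beside 5.25%. In RNA from a whole culture, fewer cells in S phase and less RNA of a gene per cell cannot be told apart.

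**Figure D1:**
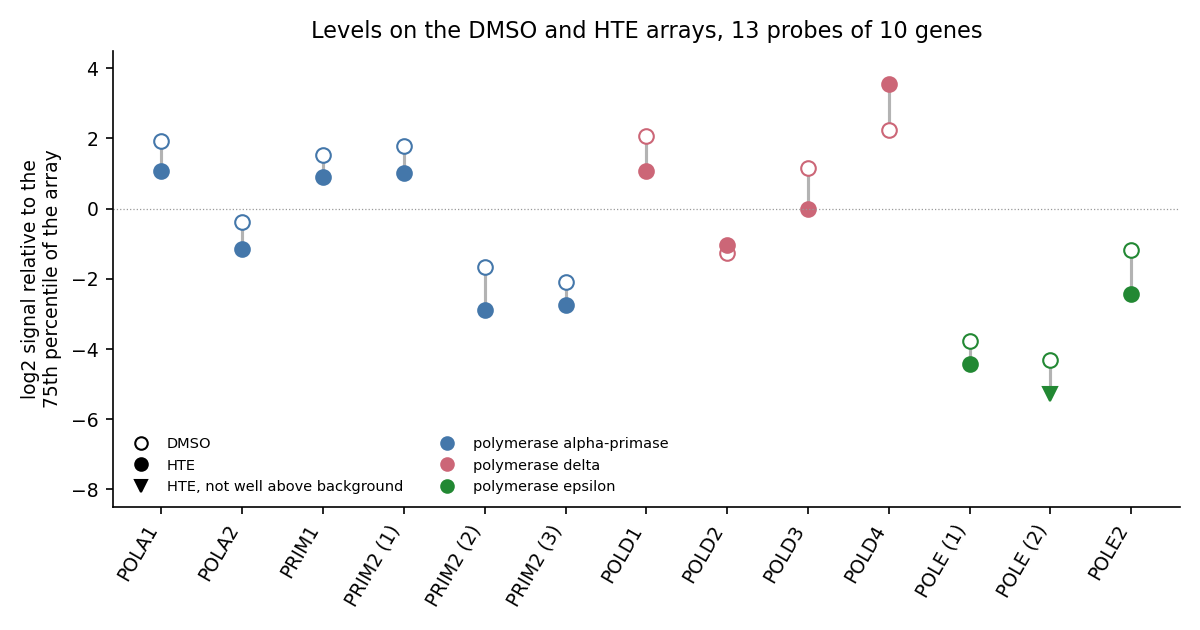
Level of each of the 13 probes on the DMSO array (open) and the HTE array (filled), as log2 signal relative to the 75th percentile of the same array; PRIM2 and POLE have several probes, numbered in brackets, and the triangle marks a spot not well above background. The filled symbol lies below the open one for 11 probes and above it for POLD2 and POLD4. With scaling to the median of the E1A spike-in probes, POLD2 falls to a log2 ratio of -1.14. POLD4 then lies at -0.0515, within its scanner error of 0.20 from 0. Heights of different probes are not comparable.

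The subunits of polymerase alpha-primase were lower together. POLA1, the catalytic subunit of polymerase alpha, had a processed signal of 15300 on the DMSO array and 7521 on the HTE array. Relative to the 75th percentile of each array, 4020 and 3570, these were log2 levels of 1.93 and 1.08. The log2 ratio was -0.85, or 55.3% of the DMSO level, with a scanner error of 0.20. This error comes from the error model of the scanner software for the spots of both arrays and does not include the spread between cultures. POLA2, the accessory B subunit, went from 3115 to 1600, a log2 ratio of -0.79. Both changes exceeded 3 times their scanner error.

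PRIM1, the catalytic subunit of primase, was the member measured most often, with 10 replicate spots. On the DMSO array the spots ranged from 11025 to 12379 with a median of 11648, and on the HTE array from 6430 to 6936 with a median of 6682. The sets of spots did not overlap before scaling, and how often this holds for other probes was not counted. The 10 log2 ratios ran from -0.73 to -0.56, with a mean of -0.63 and an SD of 0.06 among spots. These spots share 1 labelled RNA on each array and are not replicates of the treatment. Over the 688 probes with 5 or more replicate spots, log2 ratios of the same probe had a median SD of 0.05.

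PRIM2, the large primase subunit that carries an iron-sulfur cluster, had 3 probes. The brightest went from 13730 to 7178, the next from 1261 to 485.9 and the dimmest from 937.5 to 527.8. Their log2 ratios were -0.77, -1.21 and -0.66, so the direction was the same and the size differed. Over the 3759 genes with several probes the median SD among probes was 0.16. RefSeq lists a PRIM2 pseudogene, PRIM2BP, and whether its RNA adds to any of these probes was not tested. By the brightest probes, the 4 subunits of alpha-primase spanned only 0.22 on the log2 scale, from -0.85 to -0.63.

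The 4 subunits of polymerase delta spanned 2.49 on the log2 scale, and those of polymerase epsilon, with POLE3 and POLE4, spanned 1.03. POLD1, the catalytic subunit of polymerase delta, had a signal of 17020 on the DMSO array and 7448 on the HTE array. Its log2 ratio was -1.02 (49.3% of the DMSO level). POLD3, a subunit that binds the sliding clamp PCNA and also serves translesion polymerase zeta, went from 8968 to 3541. Its log2 ratio was -1.17, or 44.5% of the DMSO level. POLD1 lay just past the 2-fold limit and POLA1, at -0.85, was the next member inside it.

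POLD2, the subunit that joins the catalytic subunit to POLD3, had nearly the same signal on both arrays, 1671 and 1748. After scaling the log2 ratio was 0.24 with a scanner error of 0.20, so a difference from 0 was not resolved by this array. Without scaling it was 0.06, and with E1A spike-in scaling -1.14. RefSeq lists a pseudogene of POLD2 as well, POLD2P1, and its share in the signal was not tested.

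POLD4, the smallest subunit, which is known to be degraded after DNA damage, had a signal of 18920 on the DMSO array and 42040 on the HTE array. The log2 levels were 2.23 and 3.56, a log2 ratio of 1.32 and a 2.50-fold higher level after HTE. Of the genes measured, 97.2% had a lower log2 ratio. In all settings that did not use the spike-in RNAs, the log2 ratio of POLD4 stayed between 1.15 and 1.35. It was -0.0515 with scaling to the median of the E1A probes and 0.26 with scaling to the mean of all of them.

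Differences between subunits do not depend on a scaling that shifts all genes alike. The log2 ratio of POLD4 exceeded that of POLD1 by 2.34 (5.08-fold), that of POLD3 by 2.49 (5.63-fold) and that of POLD2 by 1.09 (2.12-fold), each with a scanner error of 0.29. POLD2 exceeded POLD1 by 1.26. Background correction, quantile normalization and the subtraction of neighbouring spots can move such a difference. That between POLD4 and POLD1 was 2.33 with normexp, 2.34 with quantile normalization and 2.13 after neighbouring spots were subtracted. Each of these genes had 1 probe, so a difference between probes of a gene could not be checked.

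**Figure D2:**
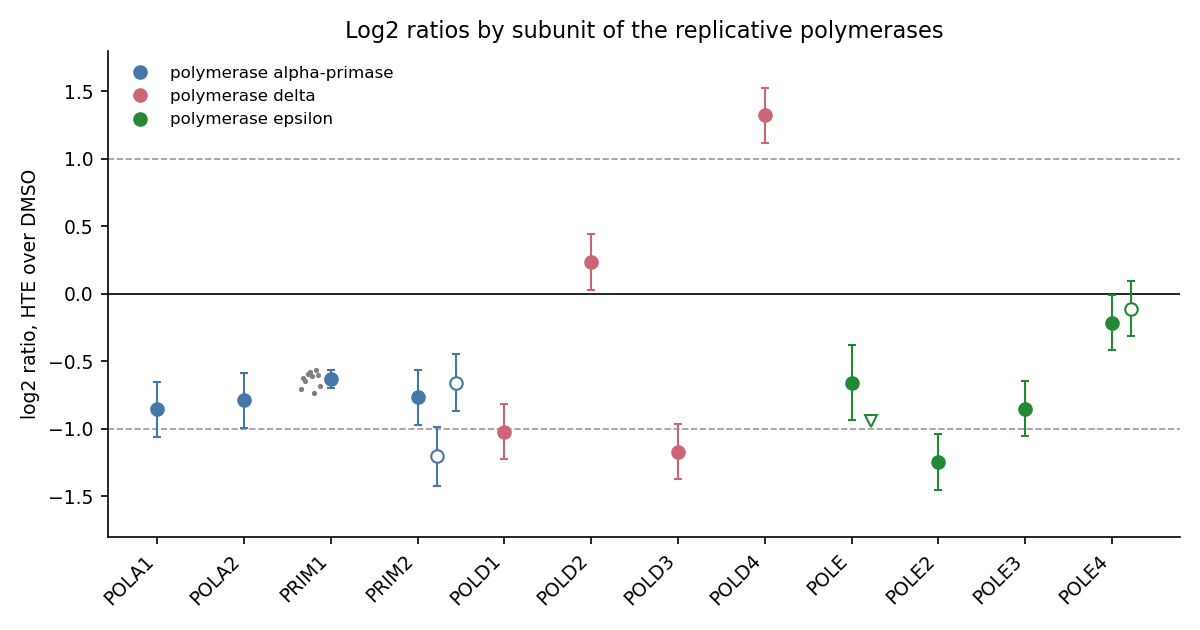
Log2 ratio of HTE over DMSO for each subunit, with bars for 1 scanner error; filled circles are the brightest probe of a gene, open circles its other probes, the open triangle a bound, and grey dots the 10 spots of PRIM1. Dashed lines mark 2-fold. All alpha-primase and epsilon probes lie below 0, while polymerase delta spans -1.17 to 1.32. With scaling to the median of the E1A spike-in probes POLD2 is at -1.14, and POLD4 is at -0.0515, within 1 scanner error of 0.

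POLE, the catalytic subunit of polymerase epsilon, was the dimmest member. Its brighter probe went from 292.8 to 164.7, a log2 ratio of -0.66 with the widest scanner error of the 10 genes, 0.28. With normexp background correction it was -0.43, and 7 of the 10 genes were then at least 1.5-fold lower in place of 8. The other probe gave 204.3 on the DMSO array and 91.5 on the HTE array, where it was not well above background. For this probe the level was at least 1.92-fold lower after HTE, with the detection limit of the HTE array taken in place of its own signal there.

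POLE2, the second subunit of polymerase epsilon, had the lowest log2 ratio of the 10 genes. Its signal was 1783 on the DMSO array and 667.4 on the HTE array, a log2 ratio of -1.25 and 42.2% of the DMSO level. Only 1.44% of the genes measured had a lower log2 ratio. POLE2 differed from POLE by -0.59 with a scanner error of 0.35.

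The small epsilon subunits POLE3 and POLE4, histone-fold proteins that are not among the 10 genes, differed from each other. POLE3 went from 26560 to 13070, a log2 ratio of -0.85, close to that of POLA1. POLE4 had 1 probe at 62580 and 47880 and another at 52600 and 43300, with log2 ratios of -0.22 and -0.11. The log2 ratio of POLE4 exceeded that of POLE2 by 1.03, with a scanner error of 0.29. That error leaves out any dependence of ratios on brightness. E1A spike-in probes with signals of 73100 and 72434 on the DMSO array rose by 0.45 and 0.44 after HTE. One with a signal of 4067 rose by 1.26. The POLE4 probes were near the bright end and POLE2 was not, and the part of brightness in their difference was not tested. POLE3 also takes part in a chromatin remodelling complex. Of the E2F letters searched, TTTCCCGC was in the POLE4 window on the opposite strand, at position -31. The POLE3 windows held none of them, although POLE3 was the lower of the pair.

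In the order of the log2 ratios, POLE2 was followed by POLD3, POLD1, POLA1, POLA2, PRIM2, POLE and PRIM1, then by a gap of 0.87 to POLD2 and a gap of 1.09 to POLD4. The steps among the first 8 genes were between 0.03 and 0.17. Among the 28 pairs of these 8 genes, 2 differed by more than 2 scanner errors of the pair, namely PRIM1 against POLE2 and PRIM1 against POLD3. All 17 pairs that held POLD2 or POLD4 differed by more than 2. The scanner error of PRIM1, averaged over 10 spots, was 0.065. With 1 spot each it was 0.21 for POLE2 and 0.20 for POLD3, so the pairs with PRIM1 had a smaller error. The members were spread over the range of signal, as the plot of ratio against signal shows, and the 3 catalytic polymerase subunits had log2 ratios from -1.02 to -0.66.

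**Figure D3:**
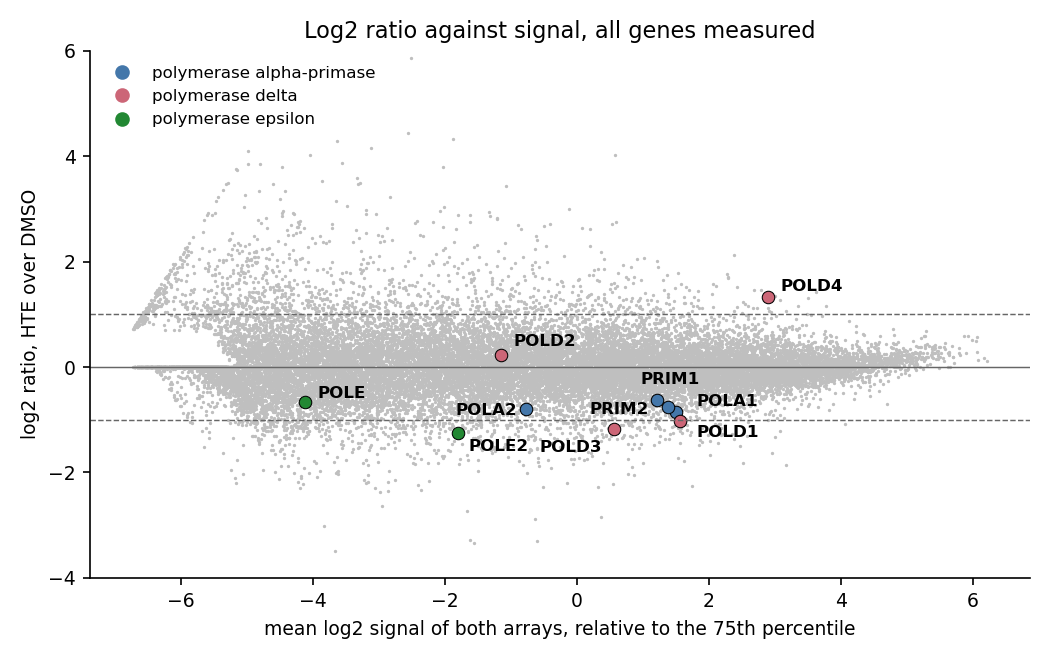
Log2 ratio of HTE over DMSO (vertical) against the mean log2 signal of both arrays relative to the 75th percentile (horizontal), for all genes measured in grey and the 10 genes in colour; dashed lines mark 2-fold. The 8 lower members lie between -1.25 and -0.63 at both low and high signal, and POLD4 lies at 1.32 (-0.0515 under E1A spike-in scaling).

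The partners of the polymerases at the fork were lower as well. Of 16 helicase and fork partners, all 16 were lower, 6 at least 2-fold, with a median log2 ratio of -0.90. MCM2, a subunit of the helicase, was lowest at -1.44, and TIPIN, of the fork protection complex, was highest at -0.49. Of 15 clamp, clamp loader and lagging strand factors, all 15 were lower, with a median of -0.54. The 4 at least 2-fold lower were the clamp loader subunit RFC3 (-1.62), the flap nuclease FEN1 (-1.55), DNA ligase LIG1 (-1.37) and the nuclease-helicase DNA2 (-1.14). RNASEH2A, a subunit of the ribonuclease that removes ribonucleotides from DNA, was highest at -0.18. With E1A spike-in scaling the median of all genes shifted by -1.36, so these directions are relative to the other genes.

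**Figure D4:**
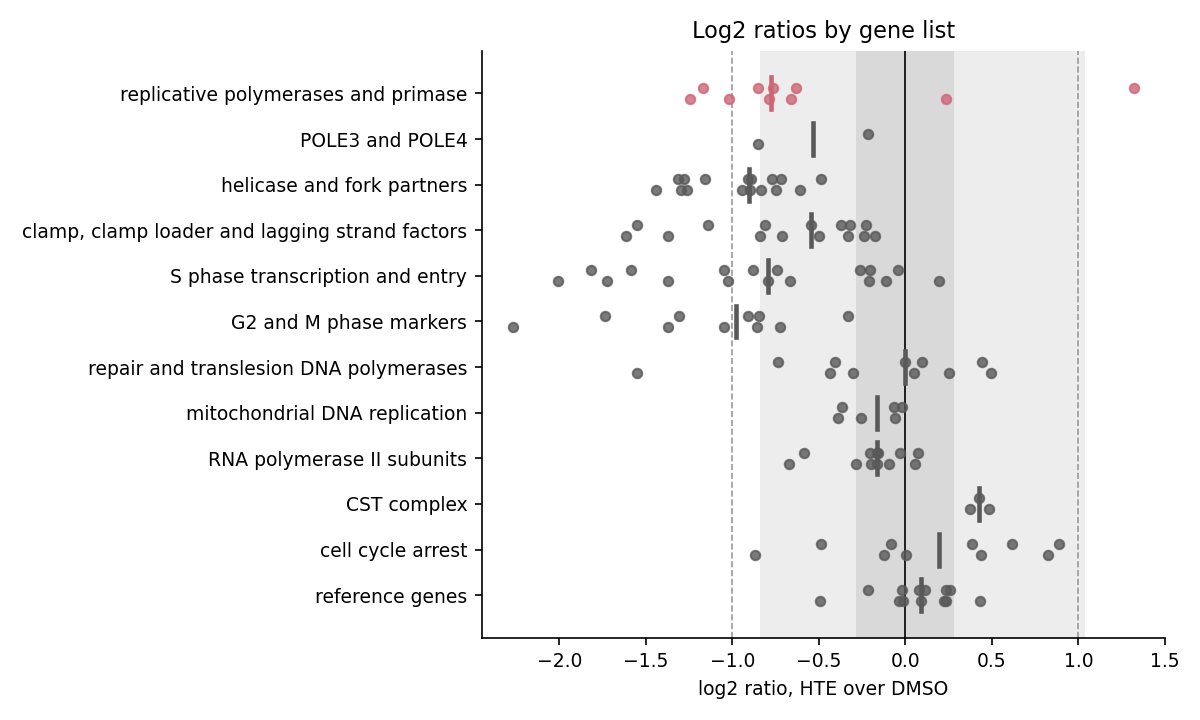
Log2 ratios of HTE over DMSO for the 10 genes (top) and related gene lists, 1 point per gene, with the median of each list as a bar; the grey bands hold the middle 50% and 90% of all genes measured, whose median is the black line, and dashed lines mark 2-fold. The helicase and fork partners lie at or below -0.49, the CST genes between 0.38 and 0.48, the latter below 0 under E1A spike-in scaling.

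The CST complex, which binds polymerase alpha-primase at telomeres, had small positive log2 ratios. CTC1 had a log2 ratio of 0.42, STN1 of 0.48 and TEN1 of 0.38, none past 2-fold. The reference genes, which ran from -0.49 to 0.43, had changes of a like size. Of the proteins that bind polymerase delta, POLDIP2 was at -0.18 and POLDIP3 at -0.32. In the list for turnover of the POLD4 protein, DTL, the substrate receptor of a CUL4 ubiquitin ligase, was at -1.44. The ligase subunits CUL4A (-0.01), CUL4B (-0.02) and DDB1 (-0.12) and the ubiquitin ligase RNF8 (-0.21) were nearer to 0. Protein levels were not measured.

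Other polymerases were described in 3 lists. Of 13 repair and translesion polymerases, DNTT and POLN were not well above background on either array. Of the other 11, 6 were lower and 5 higher, with a median of 0.00. POLQ, the polymerase of theta-mediated end joining, was the 1 past 2-fold, at -1.55, and POLL was highest at 0.50. All 6 genes for mitochondrial DNA replication were lower, from MGME1 at -0.39 to SSBP1 at -0.02, and none was past 2-fold. Of 12 RNA polymerase II subunits, 10 were lower, with a median of -0.16, from POLR2D at -0.67 to POLR2L at 0.07.

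Genes that mark the cell cycle moved alongside the polymerases. Of 17 genes of S phase transcription and entry, 16 were lower and 7 at least 2-fold lower, with a median of -0.79. They ran from E2F8, a repressor of the E2F family, at -2.01 to E2F5 at 0.20. The list holds both activators and repressors, and its counts do not separate them. All 10 markers of G2 and M phase were lower, with a median of -0.98. The 5 at least 2-fold lower were MKI67 (-2.27), PLK1 (-1.74), AURKA (-1.37), TOP2A (-1.31) and BUB1 (-1.05), and AURKB was highest at -0.33. Of 10 genes of cell cycle arrest, 6 were higher, with a median of 0.20. CDKN2C was lowest at -0.87, and CDKN2B was highest and at least 1.85-fold higher, since it was not well above background on the DMSO array. The part of the cell cycle distribution in the values of the polymerases was not tested.

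The nearest genes on the chromosome were taken as a check of position. Of 21 neighbours of the 10 genes in the RefSeq table, 16 were measured, with a median of 0.08. The pair past 2-fold were NR1H2, the liver X receptor beta gene beside POLD1, at 1.27, and CHRDL2 beside POLD3, at 1.78. Of the 16, 6 were lower. PCYT1B beside POLA1 (-0.86), DNAAF2 beside POLE2 (-0.57) and RAB23 (-0.53), which overlaps PRIM2, were chosen after their values were seen and were lower like the polymerase gene. The neighbours of POLD4, SSH3 and CLCF1, were at 0.07 and 0.68.

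The cell line and the arrays were checked in the same files. All 10 hepatocyte markers were well above background on both arrays, with log2 ratios from -0.36 for FGB to 0.21 for SERPINA1. Of 10 markers of leukocytes, endothelium and fibroblasts, CD3E, CDH5 and COL1A2 were not well above background. The other 7 had levels from -4.47 to 0.04 on the DMSO array and from -5.10 to 0.51 on the HTE array, with ratios of -1.82 for PECAM1, -1.77 for CD14, -0.63 for VWF and COL1A1, and up to 0.46 for CD68. Their part in the result was not tested. Of 13 reference genes, 8 were higher and 5 lower, with a median of 0.09, from TBP at -0.49 to GAPDH at 0.43. Spots well above background were 60.6% on the DMSO array and 56.6% on the HTE array, and no spot was saturated. Among all genes measured, 1248 were at least 2-fold higher and 720 at least 2-fold lower, and without scaling these were 883 and 1209, where the median of all genes shifted by -0.16. All 8 E1A probes well above background on both arrays were brighter on the HTE array, by 0.44 to 1.56 on the log2 scale.

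**Figure D5:**
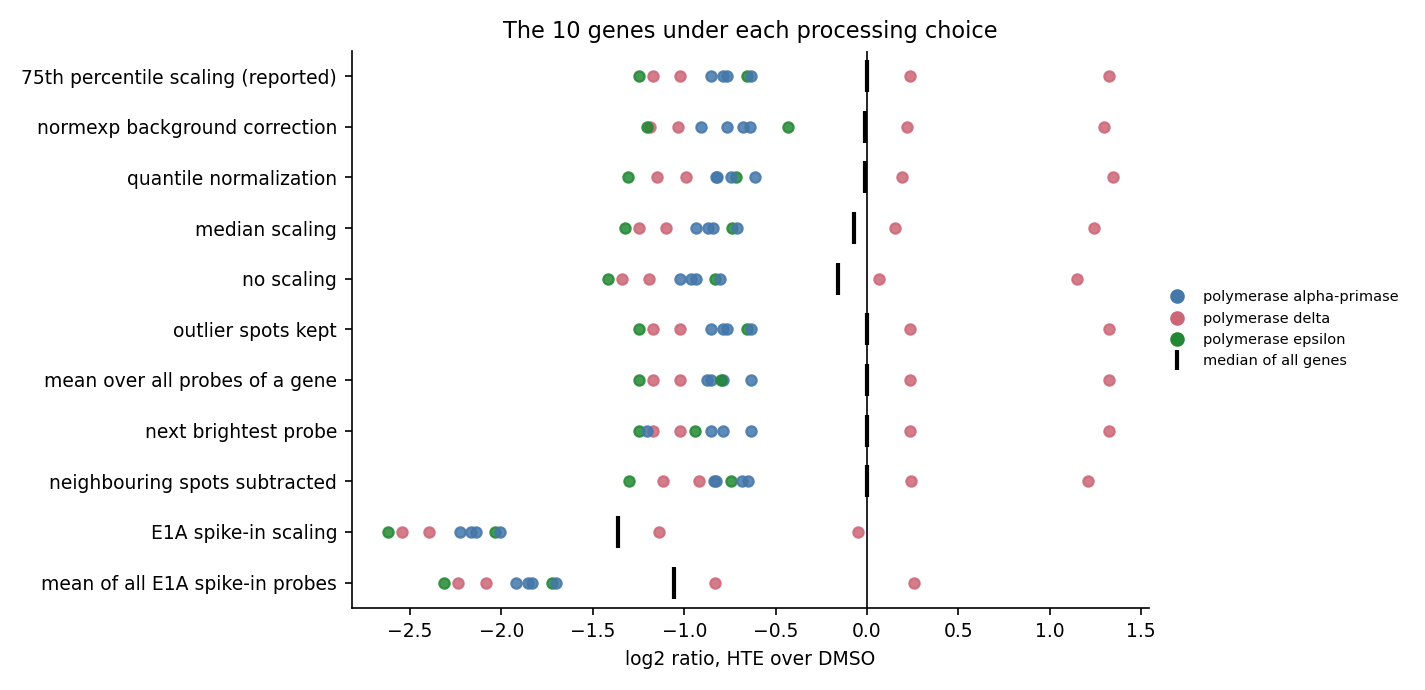
Log2 ratio of HTE over DMSO for each of the 10 genes under 11 processing choices, coloured by complex, with the median of all genes measured as a black bar. Median scaling, no scaling and both spike-in scalings move all genes alike by construction, so the genes keep their places relative to the bar, which lies at -1.36 and -1.06 under the spike-in scalings; POLE moves to -0.43 with normexp.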

How the data were processed

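The intensity values used were the processed signals deposited by the authors, background-subtracted and detrended by Agilent Feature Extraction and not scaled between arrays. The file headers give version 11.5.1.1 and the labels 10.7. RNA was labelled with Cy3, and both arrays lay on 1 slide. Control and outlier spots were left out, replicate spots averaged, and the 75th percentile of log2 signal over all spots other than controls subtracted on each array. A probe counted as measured on an array where a share of at least 0.5 of its spots passed the software's background flag, and was kept if it passed on either array. A probe dim on the other array entered as a bound against the lowest passing signal there. RefSeq names covered 28174 of 50599 probes, and the brightest probe stood for a gene. Named were all members, the highest and lowest gene of each list, neighbours past 2-fold, and genes behind counts of 5 or fewer. The members and lists were chosen with earlier results of these data known. The steps were tested on simulated data. Alternatives covered background correction (limma 3.58.1, normexp, offset 50, run on the median signal of each spot), scaling, probe choice, filters, a 1.5-fold limit and the signal of neighbouring spots (5 rows and columns). Python 3.11.15, numpy 2.4.6, pandas 2.3.3, matplotlib 3.10.9 and R 4.3.3 were used.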

Additional observations from a re-analysis of the deposited data

How the results depend on the processing

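Of the 10 genes, 8 were lower in every setting except scaling to the median of the E1A spike-in probes (10) and to the mean of all E1A probes (9), the latter chosen after seeing the data. The median log2 ratio, -0.78 as reported, was -0.86 with median scaling, -0.95 without scaling, -0.72 with normexp, -0.90 with the next brightest probe, -2.15 with E1A scaling and -1.84 with the mean of all E1A probes. The count at least 2-fold lower, 3 as reported, was 9 and 8 with the 2 spike-in scalings and 8 at a 1.5-fold limit. It was 2 with quantile normalization and after subtracting neighbouring spots, and 4 without scaling and with the next brightest probe. POLE was -0.66 as reported and -0.43 with normexp. E1A scaling lowered the log2 ratio of POLD4 from 1.32 to -0.0515, a shift of 1.375 common to genes well above background on both arrays. Relative to the median of all genes, POLD4 stayed at 1.31. Why the spike-in probes were brighter on the HTE array was not tested. Over all genes measured, the 720 at least 2-fold lower became 468 with normexp, 1209 without scaling, 1320 with the own value of dim probes, 18521 with E1A scaling and 13083 with the mean of all E1A probes. The 1248 at least 2-fold higher became 825, 883, 1341, 112 and 184. No paired analysis was possible because each condition had 1 array. The number of arrays limits every value, and the arrays give no spread between cultures.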
